A study of Mus musculus with 4 samples.

Results

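The Dppa genes (developmental pluripotency-associated) Dppa2, Dppa3, Dppa4 and Dppa5a were followed through nuclear transfer, from an induced pluripotent stem cell (iPSC) clone to the embryonic stem cell (ESC) lines made from it. They were taken as the listed genes with a probe set annotated to them alone, which gave 4 genes with 5 of the 45101 probe sets on the array, among 18193 measured genes. The study profiled 3 mouse nuclear transfer ESC (NT-ESC) lines, NT-1, NT-2 and NT-3, each derived from a cloned blastocyst whose donor nucleus came from the clone. They were set against that clone, Adeno-1, which was made by adenoviral delivery of the reprogramming factors to tail-tip fibroblasts. All 4 cultures were kept in medium with serum and LIF above a layer of irradiated fibroblast feeders, which were reduced by brief preplating, and each was measured on 1 Affymetrix array. The labels give no mouse strain, sex or passage, the clone is 1 clone, and the lines are called subclones without saying whether they were derived separately.

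The Dppa genes are switched on in the early embryo, the germ line and pluripotent stem cells and are silent in most adult tissues. DPPA2 and DPPA4 are chromatin proteins with a SAP domain that bind each other, keep developmental gene promoters free of DNA methylation and help to switch on genes of the two-cell embryo. DPPA3, also called Stella or PGC7, is a maternal and germ cell factor that restrains UHRF1 and protects the maternal genome from loss of methylation. In ESC cultures grown in serum it is expressed in a fraction of the cells. DPPA5A, also called ESG1, is an RNA-binding protein with a KH domain. These genes have been used to ask whether a cloned embryo has reactivated its pluripotency programme. Here the donor clone already expressed them, so the comparison describes their levels after nuclear transfer and cannot show reactivation from a silent state.

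Levels are log2 intensities with the mean of each array set to an assumed 7, so log2 differences would be 14.3% smaller at a mean of 6 and 12.3% greater at the mean that puts the brightest probe set at the 16-bit limit of 16. Genes with a mean of at least 6.83, the median over the probe sets, are called bright, and all 4 Dppa genes were bright on that scale. Levels of different probe sets are not compared with each other, because probe sets differ in how strongly they bind.

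The family was present on every array, and 3 of its 4 genes differed little between the NT-ESC lines and their donor clone, while Dppa3 differed from line to line. Dppa4 was nearly flat, Dppa2 was slightly lower in all 3 lines, Dppa5a was lower in NT-1 alone, and Dppa3 was high in NT-1 and low in NT-3 with the clone in between. None of the 4 genes passed limma's test between the lines and the clone, and neither did any of the 18193 genes (0%, Benjamini-Hochberg adjusted p under 0.05), with 1006 genes (5.53%) at an unadjusted p under 0.05 and none of the Dppa genes among them. Leaving out NT-3, the line that stood furthest from the other arrays, turned the Dppa3 difference round, as given below.

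**Figure D1:**
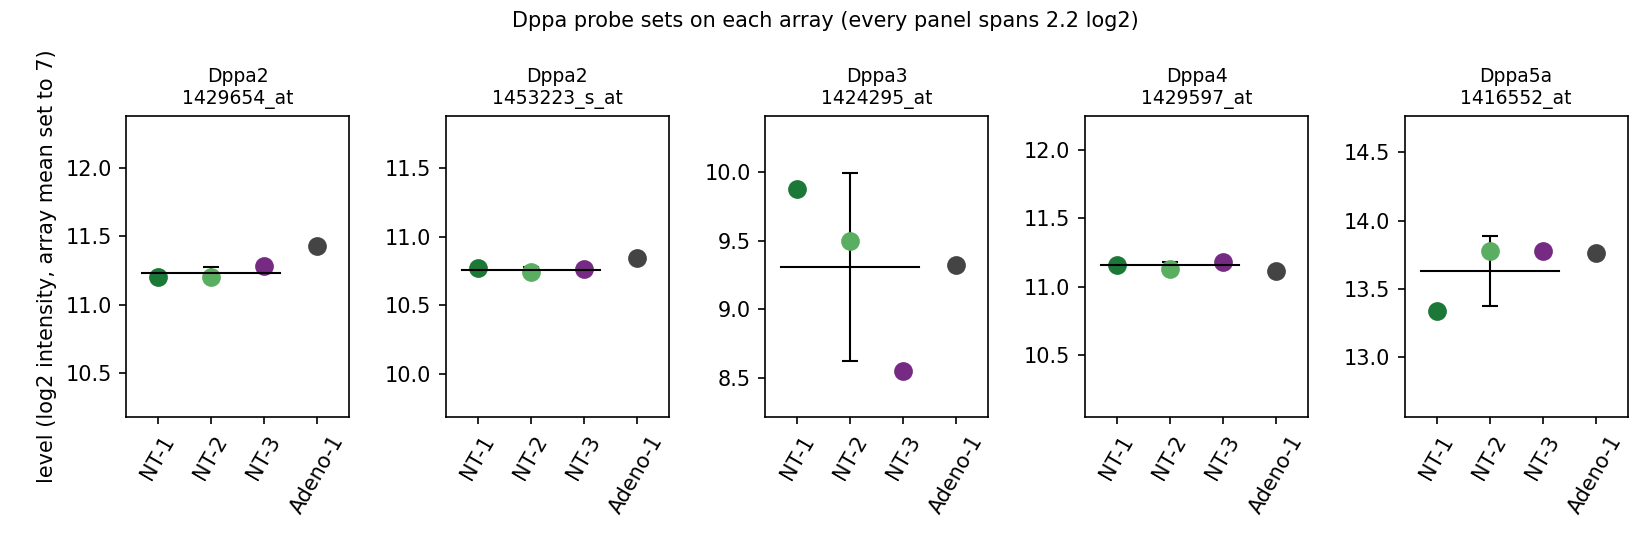
Level of each Dppa probe set (y axis, log2 intensity with the array mean set to 7) on the NT-1, NT-2, NT-3 and Adeno-1 arrays (x axis), 1 point per array. The horizontal line and bar are the mean and SD of the 3 NT-ESC lines. Dppa3 runs from 9.88 in NT-1 to 8.55 in NT-3, and the Dppa4 points lie between 11.11 and 11.18.

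Dppa4, the partner of Dppa2, stood at 11.16 in NT-1, 11.13 in NT-2 and 11.18 in NT-3, against 11.11 in Adeno-1. All 3 lines were above the clone, which 24.7% of all genes showed too. The difference was 0.04 (limma 95% confidence interval -0.15 to 0.23, Benjamini-Hochberg adjusted p = 0.953). The whole span over the 4 arrays was 0.06 log2, and 94.4% of bright genes spanned at least as much.

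Dppa2, which lies next to Dppa4 on chromosome 16, stood at 11.20 in NT-1, 11.20 in NT-2 and 11.29 in NT-3, against 11.43 in Adeno-1. All 3 lines were below the clone, as were 26.7% of all genes. The mean was 11.23 ± 0.05 in the lines (SD, n = 3), and the difference was -0.20 (limma 95% confidence interval -0.40 to 0.01, unadjusted p = 0.055, Benjamini-Hochberg adjusted p = 0.856), a 1.15-fold lower level. A second Dppa2 probe set, whose name marks it as able to bind related transcripts, stood at 10.77, 10.74 and 10.77 in the lines and at 10.85 in the clone. Both probe sets had the lines below the clone, but the second one differed by -0.09, so the size depends on the probe set. The Dppa2 difference was -0.23 without NT-3 (adjusted p = 0.609). The NT-ESC lines thus lay above the clone for Dppa4 and below it for Dppa2, with neither difference past the test. With quantile normalization NT-2 lay just below the clone for Dppa4, by -0.0067.

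Because DPPA2 and DPPA4 act on genes of the two-cell embryo, 25 such symbols were followed, of which 9 were measured and 4 were bright. Of the 9 measured genes, 6 were below the clone in all 3 lines and 1 was above it (all genes: 26.7% below and 24.7% above), with a median difference of -0.16 against -0.0031 for all genes, and none passed limma's test. Of the 6 below the clone, Eif1a was bright and the others were dim, so that count rests mostly on dim genes. The interferon-related gene Sp110 stood at 7.21, 7.20 and 7.13 in the lines and at 6.96 in the clone. Usp17la, a deubiquitinase gene, stood at 6.52 in NT-1, 7.25 in NT-2 and 7.65 in NT-3, against 7.54 in Adeno-1, so the lines overlapped the clone. Duxf3, the mouse Dux gene that DPPA2 and DPPA4 help to activate, was dim, at 4.28, 4.23 and 4.29 in the lines and 4.31 in the clone. Zfp352 stood at 6.71, 6.76 and 6.80 in the lines and 6.88 in the clone.

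Dppa3 had the widest spread of the family. It stood at 9.88 in NT-1, 9.50 in NT-2 and 8.55 in NT-3, against 9.32 in Adeno-1. NT-1 and NT-2 were above the clone and NT-3 was below it, so the groups overlapped. The mean was 9.31 ± 0.69 in the lines (SD, n = 3), and the difference from the clone was -0.01, with a 95% confidence interval of -1.21 to 1.18 by limma (Benjamini-Hochberg adjusted p = 0.998). The mean of the lines thus lay on the clone's level, but the interval leaves room for a difference of more than 2-fold either way. Without NT-3 the difference was 0.37 (limma, adjusted p = 0.624). RNA came from whole cultures, so fewer cells that express Dppa3 and less Dppa3 RNA per cell cannot be told apart.

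Set against the clone line by line, Dppa3 differed by 0.56 in NT-1, 0.18 in NT-2 and -0.77 in NT-3. These comparisons have 1 array on each side and no test. In NT-1, 0.613% of bright genes were at least as far from the clone, in NT-2 20.01% were, and in NT-3 0.655% were. None of the 3 differences reached 2-fold, the size that 0.0165% of genes reached in NT-1, 0.011% in NT-2 and 0.165% in NT-3. Few genes were as far from the clone as Dppa3 in NT-1 and in NT-3, where it lay on opposite sides of it.

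Between sister lines, the pairs that held NT-3 were further apart than any line was from the clone, and NT-1 and NT-2 were not. Dppa3 was 2.52-fold higher in NT-1 than in NT-3, a log2 difference of 1.33, in a pair where 42 genes (0.231%) were at least 2-fold apart and 39 of them were higher in NT-1. NT-2 exceeded NT-3 by 0.95, just under 2-fold, in a pair where 0.17% of genes were 2-fold apart. NT-1 exceeded NT-2 by 0.38, and 0.749% of bright genes were at least as far apart in that pair, where 0.011% of all genes were 2-fold apart. In order, Dppa3 was highest in NT-1, then NT-2, Adeno-1 and NT-3. The neighbours NT-1 and NT-2 (0.38 apart) and NT-2 and Adeno-1 (0.18 apart) were closer than the SD of the lines, 0.69. Adeno-1 and NT-3 were further apart. That SD comes from these same lines, with NT-3 among them, so it cannot decide which steps of the order would recur. The span over the 4 arrays was 1.33 log2, which 24 bright genes (0.204%) matched or exceeded, while the median bright gene spanned 0.18.

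**Figure D2:**
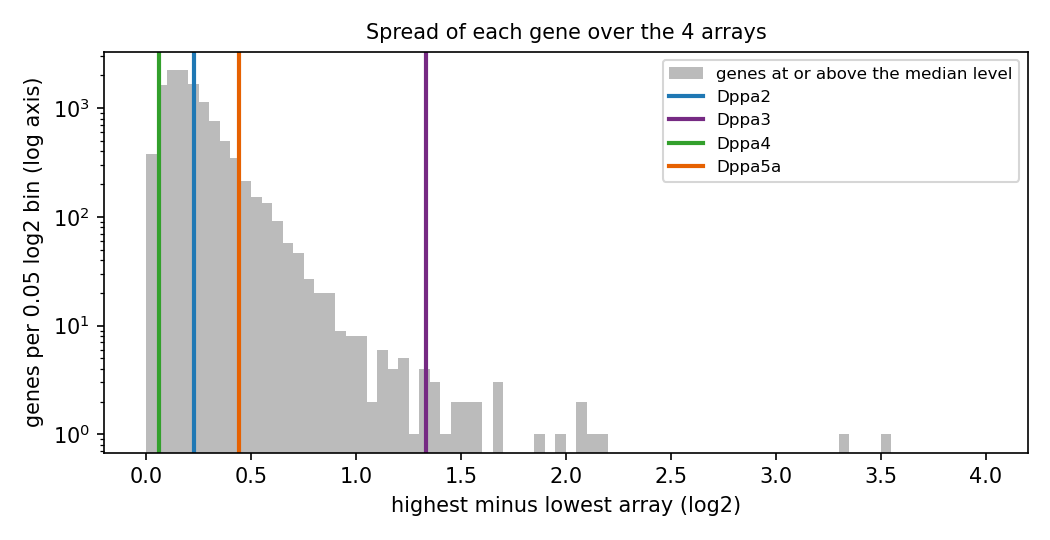
Highest minus lowest array for each bright gene (x axis, log2) as a histogram of gene counts (y axis, log scale), with a vertical line for each Dppa gene. Dppa4 lies at 0.06, Dppa2 at 0.23, Dppa5a at 0.44 and Dppa3 at 1.33, where few genes are left.

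Each line was then set against the other 3 arrays by limma, which takes the spread of those 3 arrays for the lone array as well. Dppa3 was lower in NT-3 by a log2 difference of -1.02 (95% confidence interval -1.47 to -0.56), a 2.03-fold lower level. The unadjusted p was 0.0011 and the limma Benjamini-Hochberg adjusted p was 0.0891, so the gene did not pass. That adjusted p ran from 0.0629 to 0.276 over 7 other settings of the processing. In that comparison 84 genes (0.462%) passed, 29 higher and 55 lower in NT-3, and 2104 genes (11.6%) had an unadjusted p under 0.05. No gene passed in NT-3 when any 1 of the other arrays was left out, and 15 passed with the deposited values as given, so every call in NT-3 below rests on all 4 arrays. NT-3 was the line with most calls: for NT-1 and for NT-2 no gene passed (0% each), with 504 (2.77%) and 423 (2.33%) at an unadjusted p under 0.05. Dppa3 differed by 0.76 in NT-1 (95% confidence interval -0.10 to 1.61) and by 0.25 in NT-2 (-0.93 to 1.42), with a limma adjusted p of 0.998 and 0.99999. NT-3 lies in the spread used for those 2 comparisons, which widens their intervals. It also lies in the mean that each line was set against. Without NT-3 the Dppa3 difference was 0.47 in NT-1 and -0.10 in NT-2.

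**Figure D3:**
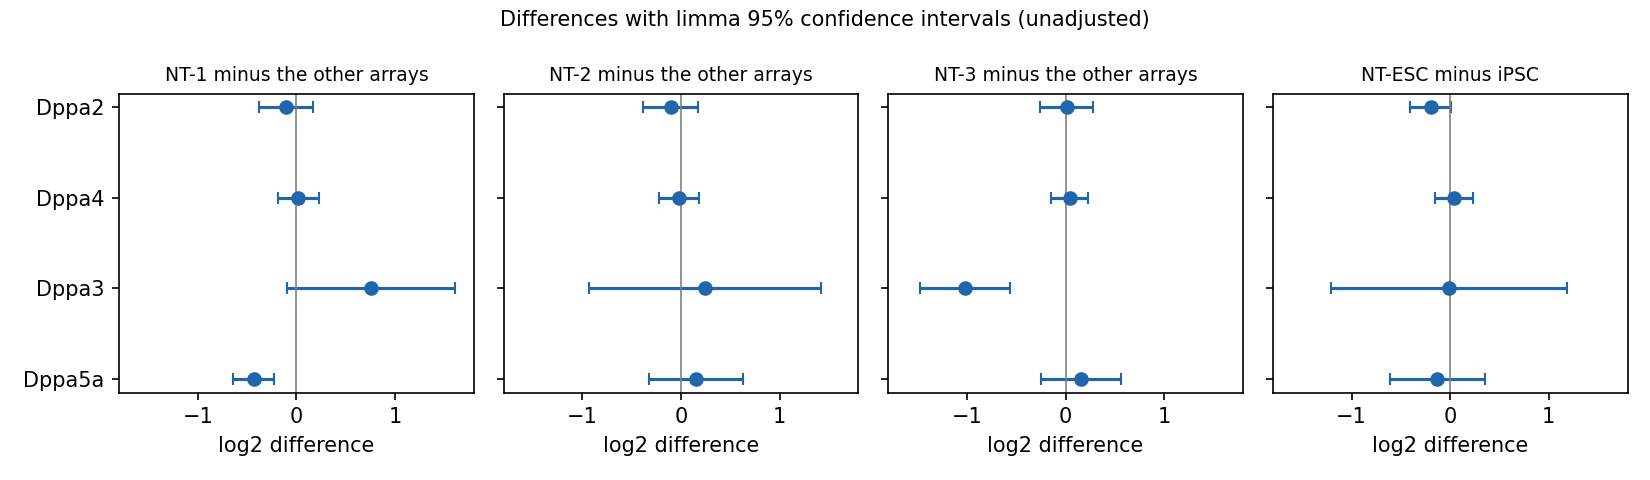
Log2 differences (x axis) of the Dppa genes (y axis) with 95% confidence intervals from limma, for each NT-ESC line minus the other 3 arrays and for the 3 NT-ESC lines minus Adeno-1. Intervals are not adjusted for the number of genes. The Dppa3 interval lies below 0 in NT-3 and the Dppa5a interval lies below 0 in NT-1, but neither gene passed after adjustment.

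Dppa5a was lower in NT-1 and level on the other arrays. It stood at 13.34 in NT-1, 13.78 in NT-2 and 13.78 in NT-3, against 13.76 in Adeno-1. NT-1 was below every other array, which 23.4% of genes showed. The NT-1 difference from the other 3 arrays was -0.44 (95% confidence interval -0.64 to -0.23 by limma), a 1.35-fold lower level. Its unadjusted p was 0.002, but the limma Benjamini-Hochberg adjusted p was 0.998. In the pair of NT-1 and NT-2, 0.417% of bright genes were at least as far apart as Dppa5a. The share was 1.66% for NT-1 and Adeno-1 and 3.75% for NT-1 and NT-3. The span of Dppa5a over the 4 arrays was 0.44 log2, which 7.47% of bright genes matched or exceeded. Across the lines the mean was 13.63 ± 0.25 (SD, n = 3), and the difference from the clone was -0.13 (limma 95% confidence interval -0.61 to 0.35, adjusted p = 0.944). Without NT-1 that difference was 0.02. Its highest value lay 0.47 below the brightest value in the table, and an effect of saturation was not tested. RefSeq also lists the pseudogenes Dppa5b and Dppa5c on chromosome 9 and Dppa3-ps on the X chromosome, and the table does not show whether the Dppa5a and Dppa3 probe sets bind transcripts of such copies.

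The dip of Dppa5a in NT-1 and of Dppa3 in NT-3 fell in different lines, and no line was low for the whole family. Over the 4 genes, 1 was above and 1 was below the other arrays in NT-1 (all genes: 20.9% above and 23.4% below), and likewise 1 and 1 in NT-3 (25.7% and 28.8%). NT-2 was alone at neither end for any of them (23.6% and 20.2%), but it shared the lowest Dppa2 value with NT-1 and the highest Dppa5a value with NT-3. These counts take 1 probe set per gene. By the second Dppa2 probe set NT-2 alone was lowest, at 10.743 against 10.766 in NT-3 and 10.773 in NT-1. The Dppa3 dip occurred on the array that differed most from the others, and its part in the result was not tested beyond leaving it out.

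RNA and cell markers were measured beside these differences. The mean level of 19 measured fibroblast and feeder markers was 8.53 in NT-1, 8.68 in NT-2 and 8.59 in NT-3, against 8.57 in Adeno-1, and the markers Col1a1 and Col3a1 were bright in every culture. Of these 19 markers, 2 were highest and 8 lowest in NT-1 (all genes: 20.9% and 23.4%), 11 were highest and 2 lowest in NT-2 (23.6% and 20.2%), and 4 were highest and 2 lowest in NT-3 (25.7% and 28.8%). Their part in the Dppa differences was not tested. The gap between the 3' and 5' Actb control probe sets was 0.28 in NT-1, 0.42 in NT-2 and 0.29 in NT-3, against 0.22 in Adeno-1. NT-2 had the widest gap. The part of RNA quality in the Dppa differences was not tested. The 12 primitive endoderm markers averaged 7.72, 7.72 and 7.75 in the lines and 7.67 in the clone. Of the 12, 5 had NT-3 as the highest array (all genes: 25.7%) and 4 had it as the lowest (28.8%). Col4a1, 0.80 higher in NT-3 than on the other arrays, was the 1 that passed limma's test there (all genes: 0.462%). That call was lost when any 1 other array was left out. Lama1 was lower there, by -0.81, and did not pass. The part of these markers in the Dppa3 difference was not tested. The 10 trophectoderm markers averaged 7.39, 7.33 and 7.14 in the lines and 7.12 in the clone, and their part in the Dppa3 difference was not tested. Within that list the simple epithelial keratin gene Krt18 stood at 9.37 in NT-1, 9.08 in NT-2 and 8.01 in NT-3, against 8.30 in Adeno-1, so it too was highest in NT-1 and lowest in NT-3. It was the 1 marker of the 10 with that combination (all genes: 8.87%). Of the 10, 4 had NT-3 as the lowest array (all genes: 28.8%) and 2, Eomes and Hand1, had it as the highest (25.7%).

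The genes closest to Dppa3 over the 4 arrays were found by the root mean square distance between levels centred on each gene's own mean, among the bright genes. A gene with no change at all would be 0.49 from Dppa3. Gbp2, an interferon-induced GTPase, was nearest at 0.0543, with 7.45 in NT-1, 7.11 in NT-2 and 6.20 in NT-3, against 6.83 in Adeno-1. Its close relative Gbp2b, with which a probe set may share signal, was at 0.107, and Lama1, a laminin chain of the basement membrane, at 0.0954. Rhox5, an X-linked homeobox gene of the germ line, was at 0.106, with 10.57, 10.09 and 9.07 in the lines and 10.12 in the clone. Nxt2, an X-linked RNA export gene, was at 0.122. These 5 genes lie on 3 chromosomes, none of them on chromosome 6 with Dppa3. With 4 arrays such closeness is a description of these cultures only.

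**Figure D4:**
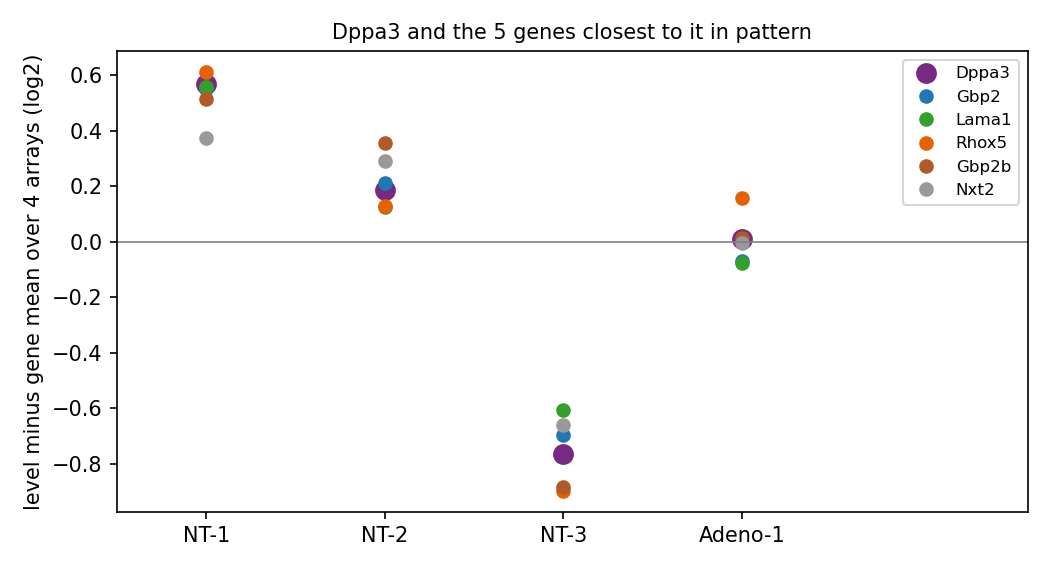
Level minus the gene's mean over the 4 arrays (y axis, log2) for Dppa3 (large points) and the 5 bright genes nearest to it, on each array (x axis). All 6 genes are highest in NT-1 and lowest in NT-3.

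Dppa3 lies on chromosome 6 in a cluster of pluripotency genes between Gdf3 and Nanog. Its neighbours did not share the size of its spread. Nanog, a core pluripotency transcription factor, stood at 12.28 in NT-1, 12.28 in NT-2 and 12.04 in NT-3, against 12.05 in Adeno-1. Gdf3, a growth factor of the TGF-beta family, stood at 9.99, 10.05 and 9.64 in the lines and 10.07 in the clone, so it was lowest in NT-3 but not highest in NT-1. The glucose transporter gene Slc2a3 was higher in NT-3, at 13.51, than in Adeno-1, at 13.31. Over the 10 nearest measured genes the NT-3 difference from the other arrays ran from -0.45 for Rimklb to 0.12 for Slc2a3, with a median of -0.12, and none passed limma's test. Dppa3 itself, at -1.02, lay outside that range.

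Around Dppa2 and Dppa4 the picture was the reverse, with flat members beside a gene that fell. Morc1, which represses transposons in the male germ line and lies on the far side of Gm5485 from Dppa2, stood at 9.87 in NT-1, 9.87 in NT-2 and 8.53 in NT-3, against 9.87 in Adeno-1. It fell by 1.34 on the log2 scale in NT-3 relative to the other arrays (limma, Benjamini-Hochberg adjusted p = 0.00139, a call lost when any 1 other array was left out), while Dppa2 and Dppa4 differed by 0.01 and 0.04 there. The other neighbours of Dppa2 differed in NT-3 by -0.19 for the adhesion gene Nectin3 up to 0.49 for Gm5485, and none of them passed.

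Next to Dppa5a on chromosome 9 lies Ooep, a KH domain gene of the oocyte's subcortical maternal complex. Ooep stood at 10.28 in NT-1, 10.70 in NT-2 and 10.30 in NT-3, against 10.74 in Adeno-1. It was low in NT-1 with Dppa5a, but also low in NT-3, where Dppa5a was not. Ddx43, an RNA helicase gene, was also lowest in NT-1, at 7.66, and lay between 7.97 and 8.28 on the other arrays. Eef1a1, a translation elongation factor gene that is very bright, stayed between 14.13 and 14.15 on all 4 arrays. None of the 10 neighbours passed limma's test between the lines and the clone.

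**Figure D5:**
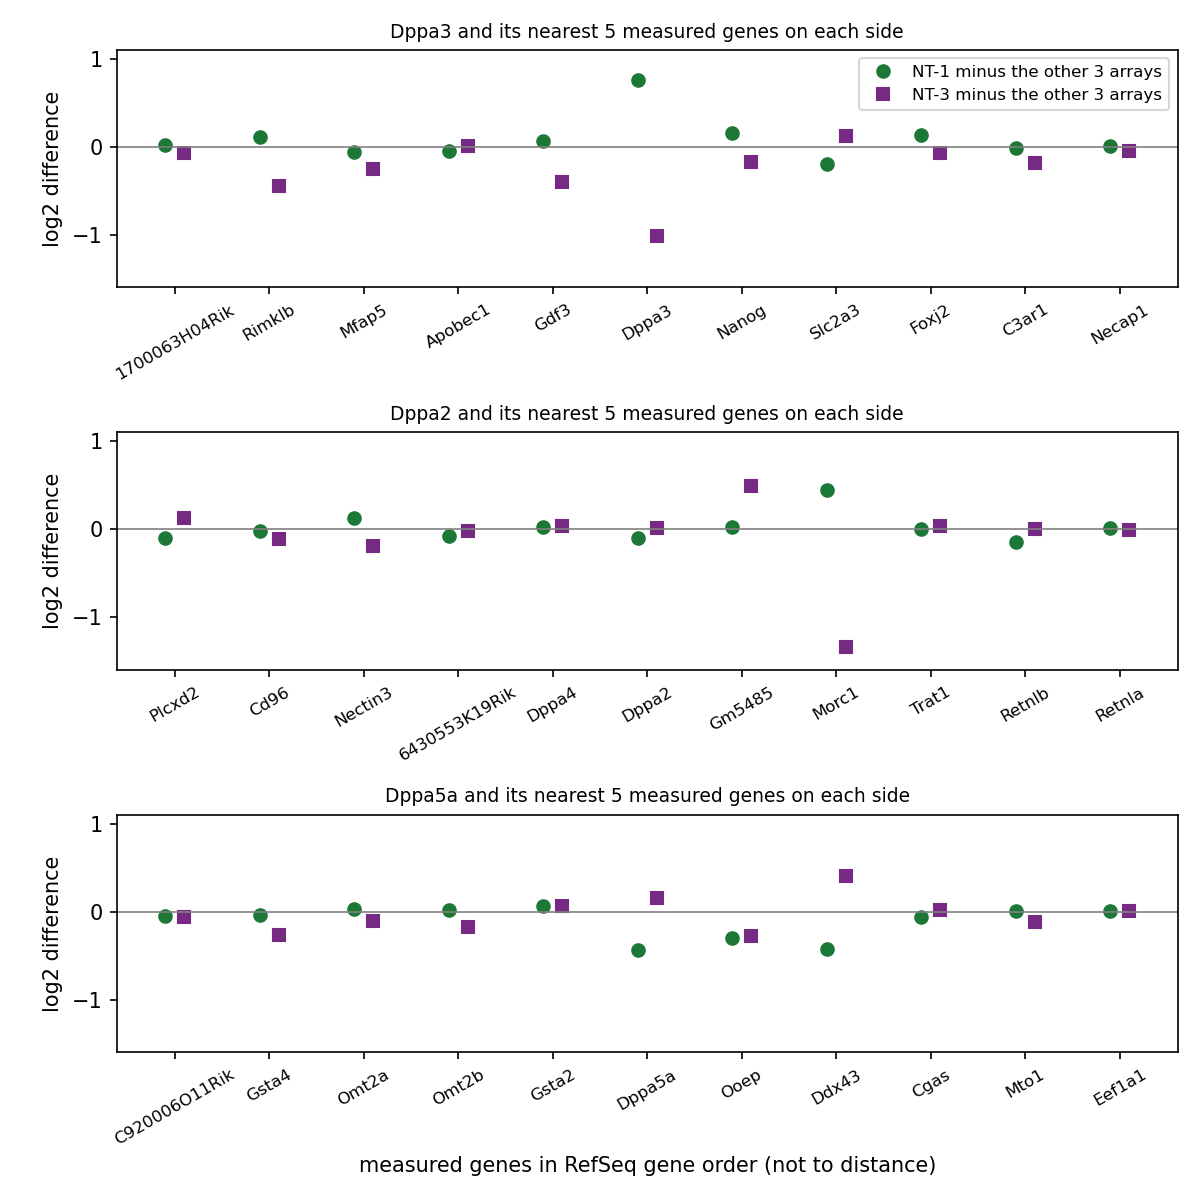
Log2 difference (y axis) of NT-1 (circles) and NT-3 (squares) from the other 3 arrays, for Dppa3, Dppa2 and Dppa5a and the nearest 5 measured genes on each side, in RefSeq gene order (x axis, not to distance). Dppa3 stands out at -1.02 among its neighbours in NT-3, and Morc1 at -1.34 stands out beside Dppa2.

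Of the KH domain and maternal complex genes, 9 of 11 were measured, with 4 above and 2 below the clone in all 3 lines (all genes: 24.7% and 26.7%) and a median of 0.07. Khdc3, a KH domain gene related to Dppa5a, stood at 9.40, 9.61 and 9.54 in the lines and 9.22 in the clone, and Tle6, a corepressor-like member of the complex, differed by 0.13. None passed limma's test.

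Of the listed genes of DNA methylation and demethylation, 12 of 13 were measured and none passed limma's test in either comparison. The median difference of the lines from the clone was 0.03. Uhrf1, the maintenance factor that DPPA3 restrains, stood at 11.16 in NT-1, 11.06 in NT-2 and 10.78 in NT-3, against 10.98 in Adeno-1, so it shared with Dppa3 its highest and its lowest array. That combination was seen in 1613 genes (8.87%), with ties of NT-1 and NT-2 for highest counted. Of these 12 genes 2 had it, Uhrf1 and Gadd45a. Dnmt3b, a de novo methyltransferase, stood at 11.46, 11.27 and 10.81 in the lines and 11.54 in the clone. Its NT-3 difference from the other arrays was -0.61 (limma, adjusted p = 0.0891). Dnmt3a stood at 10.02 in NT-1, 10.02 in NT-2 and 10.50 in NT-3, against 10.50 in Adeno-1, and Dnmt3l at 11.53, 11.90 and 11.78 in the lines and 11.99 in the clone. Gadd45b, a stress gene tied to demethylation, differed by 0.43 between the lines and the clone and was higher in each line.

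Among 19 measured imprinted genes the median difference from the clone was -0.01, with 3 above and 6 below it in all 3 lines (all genes: 24.7% and 26.7%). Zdbf2, a paternally expressed gene, had the greatest difference of the list, with 8.94 in NT-1, 9.01 in NT-2 and 9.57 in NT-3, against 8.21 in Adeno-1. It was 0.96 higher in the lines and did not pass (limma, Benjamini-Hochberg adjusted p = 0.856). Peg3, a paternally expressed zinc finger gene, stood at 9.30 in NT-1, 9.29 in NT-2 and 8.30 in NT-3, against 9.07 in Adeno-1. Peg3 was the 1 imprinted gene of the 19 that passed in NT-3 on all 4 arrays (all genes: 0.462%). It differed by -0.92 (limma, Benjamini-Hochberg adjusted p = 0.0311), a call lost when any 1 other array was left out. Mest differed by -0.38 between the lines and the clone and was lower in each line, without passing. Peg10 differed by 0.64 in NT-3 from the other arrays, also without passing (limma, adjusted p = 0.0977). Peg3, Mirg and Plagl1 had NT-1 highest and NT-3 lowest, 3 of the 19 (all genes: 8.87%).

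Of the primordial germ cell genes, 15 of 16 were measured, and 2 of them passed in NT-3 (all genes: 0.462%), both lower. Both calls were lost when any 1 other array was left out. Ifitm1, which encodes an interferon-induced membrane protein, stood at 9.52 in NT-3 and at 10.62 in NT-1, 10.71 in NT-2 and 10.56 in Adeno-1 (limma, Benjamini-Hochberg adjusted p = 0.00600). Taf7l, a germ cell transcription factor subunit, stood at 6.55 in NT-3 and at 7.31 in NT-1, 7.39 in NT-2 and 7.23 in Adeno-1 (adjusted p = 0.0287). Mael, a piRNA pathway gene, differed by -1.06 there without passing (limma, adjusted p = 0.0537), as did Rhox5 at -1.20 (adjusted p = 0.0557). Tfap2c, a germ cell specification factor, was higher in each line than in the clone, by 0.56, and did not pass between the lines and the clone (adjusted p = 0.856). Of the 15, 6 had NT-3 as the lowest array (all genes: 28.8%) and 4 had it as the highest (25.7%), with a median of -0.13 in NT-3 against -0.0059 for all genes.

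The naive state genes are often read together with Dppa3 in mouse ESCs. All 16 were measured, 9 were above and 1 was below the clone in all 3 lines (all genes: 24.7% and 26.7%), and the median was 0.14. Tfcp2l1 stood at 10.84, 10.68 and 10.75 in the lines and 10.11 in the clone, and Esrrb at 11.38, 11.30 and 11.27 in the lines and 11.01 in the clone. Both stayed above the clone in NT-3, where Dppa3 was below it. Other naive genes were below the clone there: Nr0b1 (10.11 in NT-3, 10.73 in Adeno-1), Fgf4 (10.83 and 11.24) and Jam2 (9.95 and 10.30). Of the 16, 5 had NT-3 as the lowest array (all genes: 28.8%) and none had it as the highest (25.7%). NT-1 was highest and NT-3 lowest in 2 of the 16, Pecam1 and Nanog, although Nanog was level in NT-1 and NT-2 at 12.28. With such ties for highest counted, that combination was found in 8.87% of all genes and 10.6% of bright genes. Of 16 other ESC-associated transcripts, which share members with the naive list, 4 had that combination, 5 were above and 4 below the clone in all 3 lines (all genes: 24.7% and 26.7%), and the median was -0.02. Of 12 measured primed epiblast genes, 7 were below the clone in all 3 lines (all genes: 26.7%) and none was above (24.7%), with a median of -0.29, and 8 had NT-3 as the lowest array (28.8%). No gene of these 3 lists passed limma's test in either comparison.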

How the data were processed

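RNA of 4 mouse cultures, 1 iPSC clone and 3 NT-ESC lines, was measured on 1 Affymetrix array each, per the labels' protocols after biotin labelling by in vitro transcription. The deposited table holds log2 values. Raising 2 to a deposited value gives a ratio that averages 1 on each array, so a value has the form of the log2 of log intensity over the array mean, and each was turned into a level by multiplying that ratio by an assumed 7. The normalization software is not given in the sources used here. Of 45101 probe sets 34945 had 1 gene, 932 several and 9160 none, with 64 controls besides. Of the probe sets with 1 gene, 34741 had a gene ID found in RefSeq GRCm38.p6, used for symbols and gene order. Each gene was taken from its probe set with the highest mean. Tests were limma 3.58.1 in R 4.3.3 (lmFit, eBayes, two-sided) over all 18193 genes with Benjamini-Hochberg adjustment, tested on simulated data. With 1 iPSC array, the lone array was assumed to vary like the others. P-values measure the spread between these arrays, which may be technical, and precision is limited by how few arrays there are.

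The Dppa genes, the lists and the tests were chosen with earlier results of these data known. The genes named are the Dppa genes, the 5 genes nearest to Dppa3, the 5 measured neighbours on each side, and up to 4 bright members of each of 11 lists by size in either comparison. Named outside that rule, after their values were seen, were the dim genes Duxf3 and Zfp352, and Gadd45a, Mirg, Plagl1 and Pecam1. Alternatives changed the probe set, the scale, the normalization, the filter on dim genes, the variance prior and the arrays.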

Additional observations from a re-analysis of the deposited data

How the results depend on the processing

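No Dppa gene passed limma's test in any comparison under any alternative run. For Dppa3 in NT-3 the difference stayed negative throughout; its Benjamini-Hochberg adjusted p by limma ran from 0.0629 with quantile normalization to 0.276 with the deposited values as given, and from 0.348 to 0.613 when 1 array was left out, where fewer arrays remain to estimate the spread. Leaving out 1 array gave -1.14 to -0.86 for it. The Dppa3 difference between lines and clone ran from -0.30 to 0.37 and turned positive without NT-3, that of Dppa5a ran from -0.20 to 0.019 and turned positive without NT-1, and Dppa3 in NT-2 ran from -0.10 to 0.56, negative without NT-3. Dppa2 in NT-3, 0.01, was -0.0063 with the mean of its probe sets, -0.021 with quantile normalization and -0.028 to 0.086 with 1 array left out. With the mean of its probe sets Dppa2 differed from the clone by -0.15 in NT-1 and -0.17 in NT-2. With quantile normalization Dppa2 differed by -0.19 in NT-3. Dppa4 then differed by 0.0058 in NT-1, -0.0067 in NT-2 and 0.021 in NT-3, so NT-2 was no longer above the clone. The number of genes called for NT-3, 84, was 168 with the mean of probe sets, 127 with quantile normalization, 153 with a variance trend, 15 with the deposited values as given, and 0 whenever 1 other array was left out. The cause of these changes was not tested. No paired analysis was possible because the clone is 1 array and shares 1 replicate number with the lines.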
